A study of Mus musculus with 27 samples.

Results

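Scavenger and Fc gamma receptors are the surface proteins through which macrophages bind modified lipoproteins, debris, hemoglobin complexes and antibody-coated particles. The set holds 10 of the 50559 genes of the count table, chosen by symbol: the scavenger receptors Cd163, Msr1, Marco, Stab1 and Scarb1, the activating Fc gamma receptors Fcgr1, Fcgr3 and Fcgr4, the inhibitory Fc gamma receptor Fcgr2b, and Fcer1g, the signalling chain that the activating receptors share. All 10 passed the filter on low counts and were among the 13614 genes tested.

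Activating Fc gamma receptors bind the constant part of IgG and signal through the immunoreceptor activation motif of the FcRγ chain and the kinase Syk, whereas Fcgr2b carries an inhibitory motif that recruits phosphatases, so the balance between both kinds sets how strongly a macrophage answers to immune complexes. Scavenger receptors are a structurally mixed group that takes up polyanionic ligands and directs them to endocytosis. In macrophages, interferons are known to raise Fcgr1, and IL-4 is known to favour Fcgr2b over the activating receptors.

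Bone marrow-derived macrophages were obtained from age-matched C57BL/6 mice of 3 to 4 months, labelled as female, either WT or TRAP1 KO, by culture in medium that contained L929-conditioned medium as a source of M-CSF. TRAP1 is a mitochondrial chaperone. Cells were left unpolarized (Mφ) or became M2 cells through 24 h of IL-4 (10 ng/ml), and were then kept for 48 h in control medium (DMEM) or in MPNST-CM, a medium conditioned by cells of malignant peripheral nerve sheath tumor, whose line the labels do not name. RNA was profiled by sequencing of 3′ ends. The 8 groups are thus WT Mφ, TRAP1 KO Mφ, WT M2 and TRAP1 KO M2, each in control medium or in MPNST-CM, with 3 libraries per group in batch 1. These 24 libraries held 7037684 to 9089792 counts each (median 7872887). Batch 2 added 3 libraries of 9997776 to 11152362 counts: 1 of WT Mφ without MPNST-CM, and 1 of TRAP1 KO M2 for either medium. Values are CPM, counts scaled by library size with TMM factors, and refer to batch 1 unless batch 2 is named. Those of a group are listed in the order of the replicate numbers, which run from 2 to 4 in WT M2 in control medium and from 1 to 3 elsewhere. The labels do not state which replicates came from separate animals, so the p-values measure only the spread between these samples, which may be technical. In bulk RNA, fewer cells that express a gene and less RNA of it per cell cannot be told apart.

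Trap1, the targeted gene, was read first. It stood at 13.4, 11.6 and 11.6 CPM in WT Mφ in control medium, at 16.7, 11.2 and 13.7 CPM in WT Mφ in MPNST-CM, at 15.8, 16.3 and 18.8 CPM in WT M2 in control medium and at 10.4, 10.5 and 10.6 CPM in WT M2 in MPNST-CM. No count of Trap1 was found in the 12 TRAP1 KO libraries of batch 1, where the floor of 3 counts per library corresponded to 0.323 to 0.451 CPM over the 24 libraries. In batch 2, WT Mφ had 20.7 CPM, TRAP1 KO M2 in MPNST-CM had 0, and TRAP1 KO M2 in control medium had 2 counts (0.191 CPM). Such floors cover counting error only. Xist, the transcript of the inactive X chromosome, stood at 254 to 504 CPM in the WT libraries of batch 1 and at 0 to 1.14 CPM in their TRAP1 KO counterparts, which goes against the label of female for these TRAP1 KO cells, and in batch 1 the genotype and the Xist level cannot be told apart. In batch 2 Xist was at 438 CPM in the WT library and at 308 and 404 CPM in the libraries labelled TRAP1 KO.

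The label of macrophage was checked against markers of this and other cell types. Summed over 8 macrophage markers, of which Lyz2 was the most abundant over the 24 libraries, levels ranged from 8337 to 12774 CPM. Among IL-4 markers, Retnla and Chil3 had means of 1673 and 286 CPM in WT M2 in control medium against 0.484 and 1.08 CPM in WT Mφ, while Mrc1 was present in all groups. Retnla, Chil3 and Mrc1 were higher in M2 than in Mφ in MPNST-CM in both genotypes. Markers of other cells were low: the sums ranged from 1.75 to 21.5 CPM for 8 neutrophil markers (S100a8 leading), from 0.281 to 3.99 CPM for 5 B cell markers (Cd79b leading), from 0 to 3.17 CPM for 5 T and NK cell markers (Klrb1c leading), from 4.26 to 13.03 CPM for 5 dendritic cell markers (Zbtb46 leading), and from 0 to 4.79 CPM for 5 mast cell and basophil markers (Mcpt8 leading). The sum of 8 fibroblast, Schwann lineage and endothelial markers ranged from 7.51 to 58.9 CPM and was led by Kdr, which rose in MPNST-CM in all 4 kinds of cells (log2 fold change 0.41 to 3.30). With fewer than 3 counts in each of the 24 libraries were 1 of the neutrophil, 3 of the B cell and 2 of the T and NK cell markers. The same held for 1 of the mast cell and 2 of the stromal markers.

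Several of these markers passed edgeR's test in the comparisons made on the receptors. Among neutrophil markers, S100a8 differed by genotype in Mφ, being lower with TRAP1 KO, with means of 1.34 against 5.62 CPM in control medium and 1.67 against 4.70 CPM in MPNST-CM, and S100a9 was likewise lower with TRAP1 KO in both kinds of cells and both media. Both were higher in M2 than in Mφ in control medium and fell with MPNST-CM in M2 of both genotypes, while S100a9 rose with it in Mφ of both. Ly6g rose with MPNST-CM in TRAP1 KO cells, from 0.0834 to 1.87 CPM in Mφ and from 0.0446 to 0.664 CPM in M2, in MPNST-CM was higher with TRAP1 KO than with WT in both kinds, and was lower in M2 than in Mφ in WT cells in MPNST-CM. The NK cell marker Klrb1c fell with MPNST-CM in all 4 kinds of cells (means 0.124 to 0.705 CPM, against 0.729 to 2.46 CPM) and was higher in M2 than in Mφ in TRAP1 KO cells in control medium. The B cell marker Cd79b was lower in M2 than in Mφ in WT cells in both media (0.593 against 2.92 and 1.24 against 2.92 CPM). Among dendritic cell markers, Siglech fell with MPNST-CM in Mφ of both genotypes and was lower in M2 than in Mφ in control medium in both, and Zbtb46 fell with MPNST-CM in WT M2 and was higher in TRAP1 KO than in WT M2 in that medium. The basophil marker Mcpt8 was higher in M2 than in Mφ in control medium (2.03 against 0.0409 CPM in WT, 0.786 against 0 CPM in TRAP1 KO) and in WT cells in MPNST-CM (0.704 against 0.0384 CPM), and Cpa3 was higher in WT M2 in control medium than in WT Mφ or in WT M2 in MPNST-CM. Kdr was also higher in TRAP1 KO than in WT in Mφ in control medium (log2 fold change 0.68) and in M2 in MPNST-CM (0.85), lower in Mφ in MPNST-CM (−0.42), and lower in M2 than in Mφ in every comparison but that in TRAP1 KO cells in MPNST-CM. The part of these markers in the results on the receptors was not tested.

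Of 3 reference transcripts (Rplp0, Actb and Gapdh, Actb leading, summed 2688 to 7043 CPM), all 3 were lower in M2 than in Mφ in WT cells in MPNST-CM, while in each of the other 11 pairwise comparisons at least 1 did not pass. Rplp0, which also served as an alternative scaling, was itself lower in M2 than in Mφ in that comparison (log2 fold change −0.27) and in TRAP1 KO cells in control medium (−0.33) and in MPNST-CM (−0.29). For M2 in control medium it was also lower with TRAP1 KO than with WT (−0.32). The adjusted p of these 4 by edgeR was 0.00585 to 0.0317, and scaling by Rplp0 raises every log2 fold change there.

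Several libraries stood apart. Between replicates, the chi-square per degree of freedom, taken over genes whose summed count reached 20, was 2.11 to 37.4, and none was near the value of 1 that a second copy of the same library would give. Replicate 1 was the distant one in the 4 Mφ groups and in WT M2 in MPNST-CM (16.04 to 37.4, against 2.11 to 3.42 between replicates 2 and 3), and replicate 2 was so in TRAP1 KO M2 in control medium (10.8 and 13.1, against 4.26). The 2 libraries of batch 2 labelled TRAP1 KO M2 departed from their groups in several receptors, and most of their values lay outside the range of either medium. The library labelled TRAP1 KO M2 in control medium had 779 CPM of Fcgr1 where its group had 59.7 to 70.2 CPM, and the library labelled TRAP1 KO M2 in MPNST-CM had 63.4 CPM where its group had 437 to 449.98 CPM. The first of them also had 738 CPM of Msr1, 185 CPM of Fcgr4 and 52.9 CPM of Scarb1, where the MPNST-CM group had 652 to 741, 177 to 196 and 43.4 to 49.3 CPM and its own 469.8 to 510.4, 60.2 to 81.3 and 133 to 159 CPM. The other one had 72.9 CPM of Fcgr4 and 168 CPM of Scarb1. Over the 10 receptors, the library labelled TRAP1 KO M2 in control medium lay within its own group's range in 0, within that of the other medium in 2 (Msr1 and Fcgr4) and outside both in 8. These ranges come from scaling batch 1 alone, whereas values of batch 2 come from scaling all 27 libraries together. With all 27 scaled together, Msr1 of this library (737.6 CPM) lay just above the range of the MPNST-CM group (650.7 to 737.1 CPM). Its place within that range thus depends on the scaling, and that of Fcgr4 does not. The one labelled TRAP1 KO M2 in MPNST-CM lay within its own group's range in 1 (Marco), within that of the other medium in 2 (Fcgr1 and Fcgr4) and outside both in 7. Outside both ranges in both libraries were Cd163, Stab1, Scarb1, Fcgr2b, Fcgr3 and Fcer1g, for example Fcgr2b with 76.6 and 188 CPM, against 82.8 to 97.3 CPM in control medium and 127 to 149.8 CPM in MPNST-CM. Both libraries were kept in the groups of their labels, every value from 27 libraries rests on these labels, and whether the labels hold was not tested. The WT Mφ library of batch 2 had 134 CPM of Fcgr1 and 36.3 CPM of Fcgr4, under the 198 to 229 CPM and 71.6 to 80.2 CPM of its group. Results below come from batch 1, and those that depend on leaving these libraries out are also given with all 27 libraries.

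Among the scavenger receptors, Msr1, which encodes the class A receptor for modified lipoproteins, was highest in MPNST-CM whatever the genotype. In control medium it stood at 314, 348 and 330.4 CPM in WT Mφ, at 145, 148 and 152 CPM in TRAP1 KO Mφ, at 489.6, 487 and 478 CPM in WT M2 and at 473, 510.4 and 469.8 CPM in TRAP1 KO M2. In MPNST-CM it stood at 635, 651 and 611 CPM in WT Mφ, at 643, 671 and 690.0 CPM in TRAP1 KO Mφ, at 622, 616 and 632 CPM in WT M2 and at 696, 741 and 652 CPM in TRAP1 KO M2. The 4 MPNST-CM groups overlapped with their neighbours in the order of means, all lay above both M2 groups in control medium, and the lowest group, apart from every other, was TRAP1 KO Mφ in control medium. The highest mean, 696 ± 44.3 CPM (SD, n = 3), was 4.70 times the lowest, 148 ± 3.90 CPM.

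Stab1, which encodes the clearance receptor stabilin-1, was low in M2 cells. In control medium it stood at 32.1, 30.7 and 35.1 CPM in WT Mφ, at 36.5, 45.2 and 38.5 CPM in TRAP1 KO Mφ, at 6.76, 5.83 and 5.90 CPM in WT M2 and at 11.1, 11.2 and 8.69 CPM in TRAP1 KO M2. In MPNST-CM it stood at 59.4, 40.8 and 51.6 CPM in WT Mφ, at 35.8, 51.2 and 36.6 CPM in TRAP1 KO Mφ, at 16.6, 26.3 and 25.0 CPM in WT M2 and at 17.99, 20.6 and 18.4 CPM in TRAP1 KO M2. All Mφ libraries were above all M2 libraries. Within M2, both MPNST-CM groups overlapped with each other and were above both control groups, and the mean of the highest group, WT Mφ in MPNST-CM, was 8.21 times that of the lowest, WT M2 in control medium.

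Scarb1, which encodes the HDL receptor SR-B1, was low in only 1 setting of batch 1, TRAP1 KO cells in MPNST-CM. There it stood at 45.8, 53.4 and 52.98 CPM in Mφ and at 43.4, 49.3 and 46.95 CPM in M2. WT cells in MPNST-CM had 124, 118 and 133 CPM in Mφ and 101, 113 and 117 CPM in M2. In control medium the values were 109, 119 and 121 CPM in WT Mφ, 143, 151 and 160.2 CPM in TRAP1 KO Mφ, 118, 115 and 128 CPM in WT M2 and 133, 159 and 141 CPM in TRAP1 KO M2. The low groups overlapped with each other and were separate from the remaining 6 groups. The 4 WT groups overlapped with their neighbours in the order of means, and both TRAP1 KO groups in control medium lay at the top and overlapped with each other. In batch 2 the library labelled TRAP1 KO M2 in MPNST-CM had 168 CPM, and the one labelled TRAP1 KO M2 in control medium had 52.9 CPM, within the range of the low groups.

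Cd163, which encodes the receptor for haptoglobin-hemoglobin complexes, was scarce in all groups, with 15 to 96 counts per library. In TRAP1 KO Mφ in MPNST-CM it stood at 8.99, 11.7 and 10.4 CPM, against 4.63, 3.80 and 5.26 CPM in the same cells in control medium. WT Mφ had 6.99, 6.51 and 5.47 CPM in control medium and 5.09, 5.19 and 5.07 CPM in MPNST-CM. WT M2 had 2.25, 4.92 and 3.93 CPM in control medium and 4.27, 5.00 and 6.42 CPM in MPNST-CM, and TRAP1 KO M2 had 6.00, 6.70 and 6.62 CPM and 7.80, 5.31 and 8.10 CPM. TRAP1 KO Mφ in MPNST-CM was above every other group, and all the other neighbours in the order of means overlapped.

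Marco, which encodes a class A receptor for bacteria and particles, was near the floor. WT Mφ had 13, 19 and 21 counts in control medium and 23, 17 and 17 counts in MPNST-CM, and TRAP1 KO Mφ had 15, 15 and 15 counts and 9, 7 and 7 counts. WT M2 had 3, 7 and 4 counts in control medium and 2, 2 and 1 counts in MPNST-CM, and TRAP1 KO M2 had 1, 1 and 2 counts and 0, 7 and 3 counts. In 7 of the 24 libraries, all of M2 cells, the gene had fewer than 3 counts and was not detectable at this depth. The library of batch 2 labelled TRAP1 KO M2 in control medium had 100 counts (9.57 CPM).

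**Figure D1:**
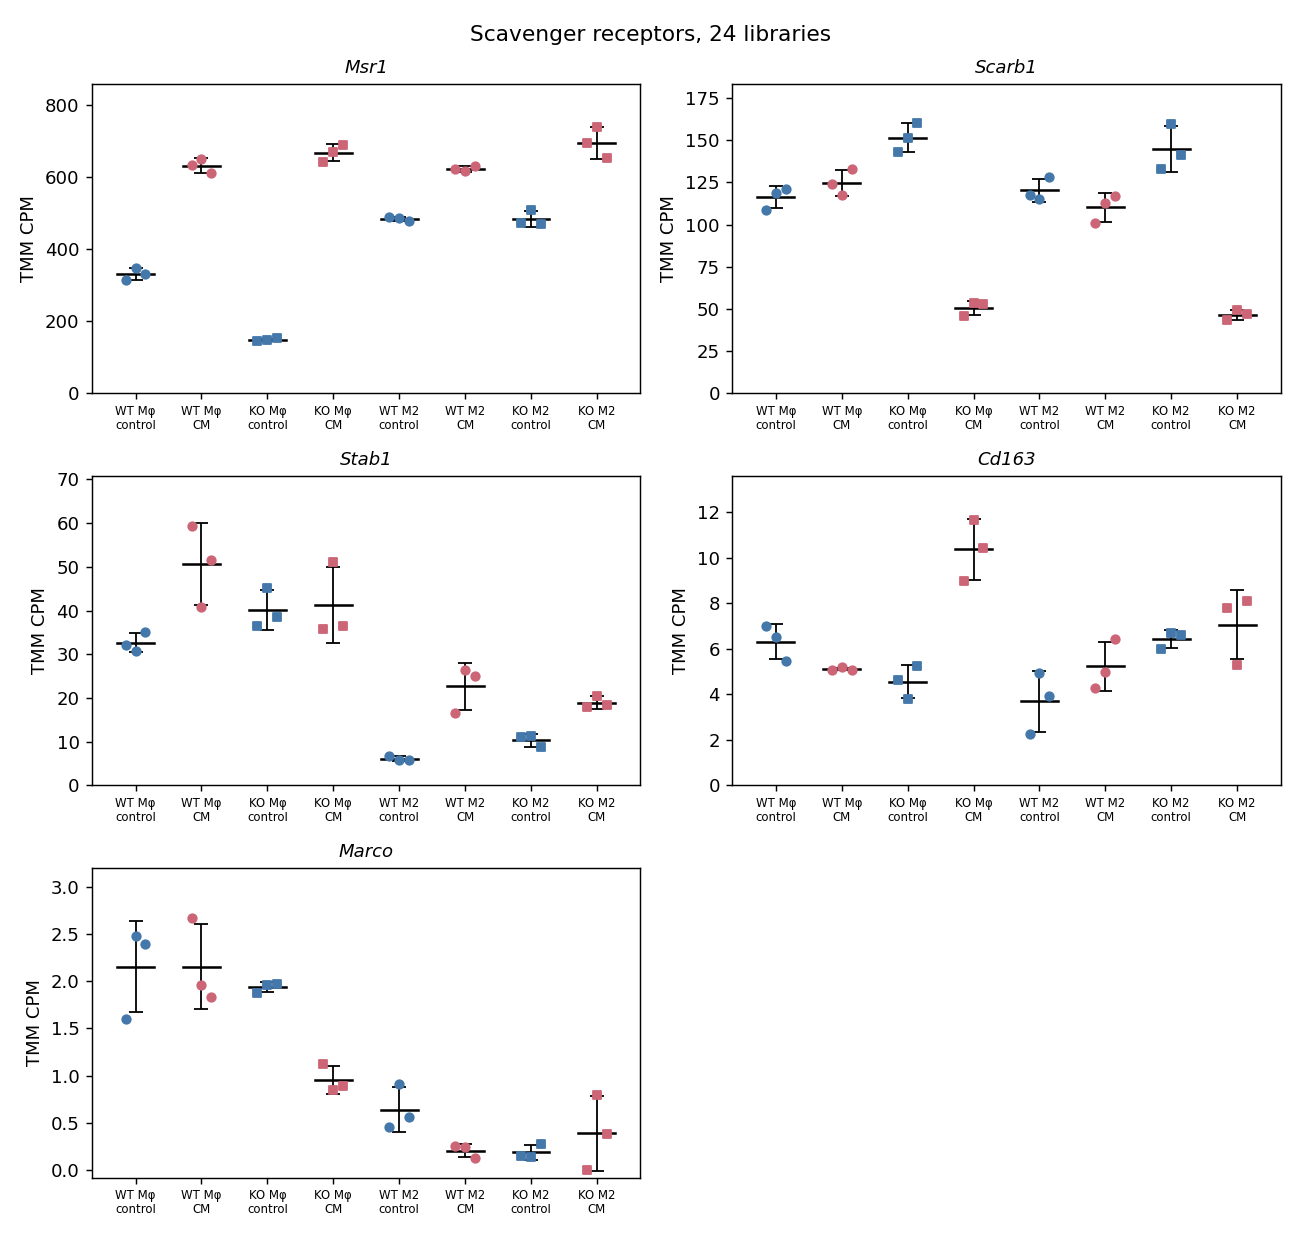
Level of each of the 5 scavenger receptors in the 24 libraries of batch 1, in CPM on a linear axis that differs between panels, by group. Circles are WT and squares TRAP1 KO libraries, blue marks control medium and red MPNST-CM, lines are means and bars SD of 3 libraries; Scarb1 is at 43.4 to 53.4 CPM in TRAP1 KO cells in MPNST-CM, under all other groups.

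Fcgr1 encodes FcγRI (CD64), the high-affinity receptor for IgG. In control medium it stood at 198, 229 and 221 CPM in WT Mφ, at 257, 306 and 278 CPM in TRAP1 KO Mφ, at 28.7, 30.1 and 28.4 CPM in WT M2 and at 59.7, 70.2 and 64.1 CPM in TRAP1 KO M2. In MPNST-CM it stood at 231, 239.95 and 240.3 CPM in WT Mφ, at 399, 452 and 459.5 CPM in TRAP1 KO Mφ, at 72.2, 81.7 and 79.1 CPM in WT M2 and at 449.98, 446 and 437 CPM in TRAP1 KO M2. The gene was thus low in M2 cells except in TRAP1 KO M2 in MPNST-CM, which overlapped with TRAP1 KO Mφ in the same medium. All the other neighbours in the order of means were separate, from 444 ± 6.87 CPM in the highest group to 29.0 ± 0.896 CPM in the lowest (SD, n = 3), a ratio of 15.3.

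Fcgr4 encodes an activating receptor of intermediate affinity. It stood at 71.6, 72.1 and 80.2 CPM in WT Mφ, at 106, 114 and 112 CPM in TRAP1 KO Mφ, at 40.1, 38.3 and 35.5 CPM in WT M2 and at 60.2, 81.3 and 65.6 CPM in TRAP1 KO M2 in control medium. In MPNST-CM the values were 103, 83.1 and 83.6 CPM in WT Mφ, 209, 227 and 213 CPM in TRAP1 KO Mφ, 64.4, 73.3 and 73.0 CPM in WT M2 and 196, 177 and 188 CPM in TRAP1 KO M2. Both TRAP1 KO groups in MPNST-CM were above all others and apart from each other, and WT M2 in control medium was below all others. WT Mφ in control medium, WT M2 in MPNST-CM and TRAP1 KO M2 in control medium overlapped.

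Fcgr3 encodes the low-affinity activating receptor FcγRIII. In control medium it stood at 810.05, 904 and 945 CPM in WT Mφ, at 663, 821 and 878 CPM in TRAP1 KO Mφ, at 1182, 1204 and 1038 CPM in WT M2 and at 1339, 1561 and 1371 CPM in TRAP1 KO M2. In MPNST-CM it stood at 947, 1019 and 967 CPM in WT Mφ, at 1546, 1690.49 and 1828 CPM in TRAP1 KO Mφ, at 1485, 1651 and 1689 CPM in WT M2 and at 1733, 1776 and 1806 CPM in TRAP1 KO M2. Its order was not that of Fcgr1, since WT Mφ were low and M2 cells high. The 4 highest groups, which were the M2 groups other than WT in control medium together with TRAP1 KO Mφ in MPNST-CM, overlapped with their neighbours, and the span from the lowest to the highest mean was 2.25.

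The inhibitory Fcgr2b shares a nearly identical extracellular sequence with Fcgr3, so reads of both could be split between them where they fall in the shared stretch, although the authors removed reads of low mapping quality and 3′ end sequencing reads the transcript ends. In control medium Fcgr2b stood at 51.3, 75.7 and 62.9 CPM in WT Mφ, at 92.5, 112 and 95.7 CPM in TRAP1 KO Mφ, at 124, 122 and 152 CPM in WT M2 and at 97.3, 82.8 and 92.8 CPM in TRAP1 KO M2. In MPNST-CM the values were 45.4, 65.2 and 62.6 CPM in WT Mφ, 86.0, 126 and 118 CPM in TRAP1 KO Mφ, 156, 176 and 174 CPM in WT M2 and 139, 149.8 and 127 CPM in TRAP1 KO M2. WT M2 in MPNST-CM was highest and apart from the next group, and both WT Mφ groups were lowest and overlapped with each other. The 5 groups between them overlapped with their neighbours.

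Fcer1g, the FcRγ chain, varied least, with a ratio of 1.24 between the highest and the lowest mean. Its 24 libraries lay between 1275 and 1771 CPM. Both TRAP1 KO groups and WT M2 in control medium, with means of 1674 ± 66.5, 1669 ± 95.6 and 1652 ± 34.1 CPM (SD, n = 3), overlapped with each other. The next group, TRAP1 KO Mφ in MPNST-CM (up to 1585 CPM), was below both M2 groups in control medium but overlapped with TRAP1 KO Mφ in control medium (from 1581 CPM), and the remaining groups overlapped with their neighbours.

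**Figure D2:**
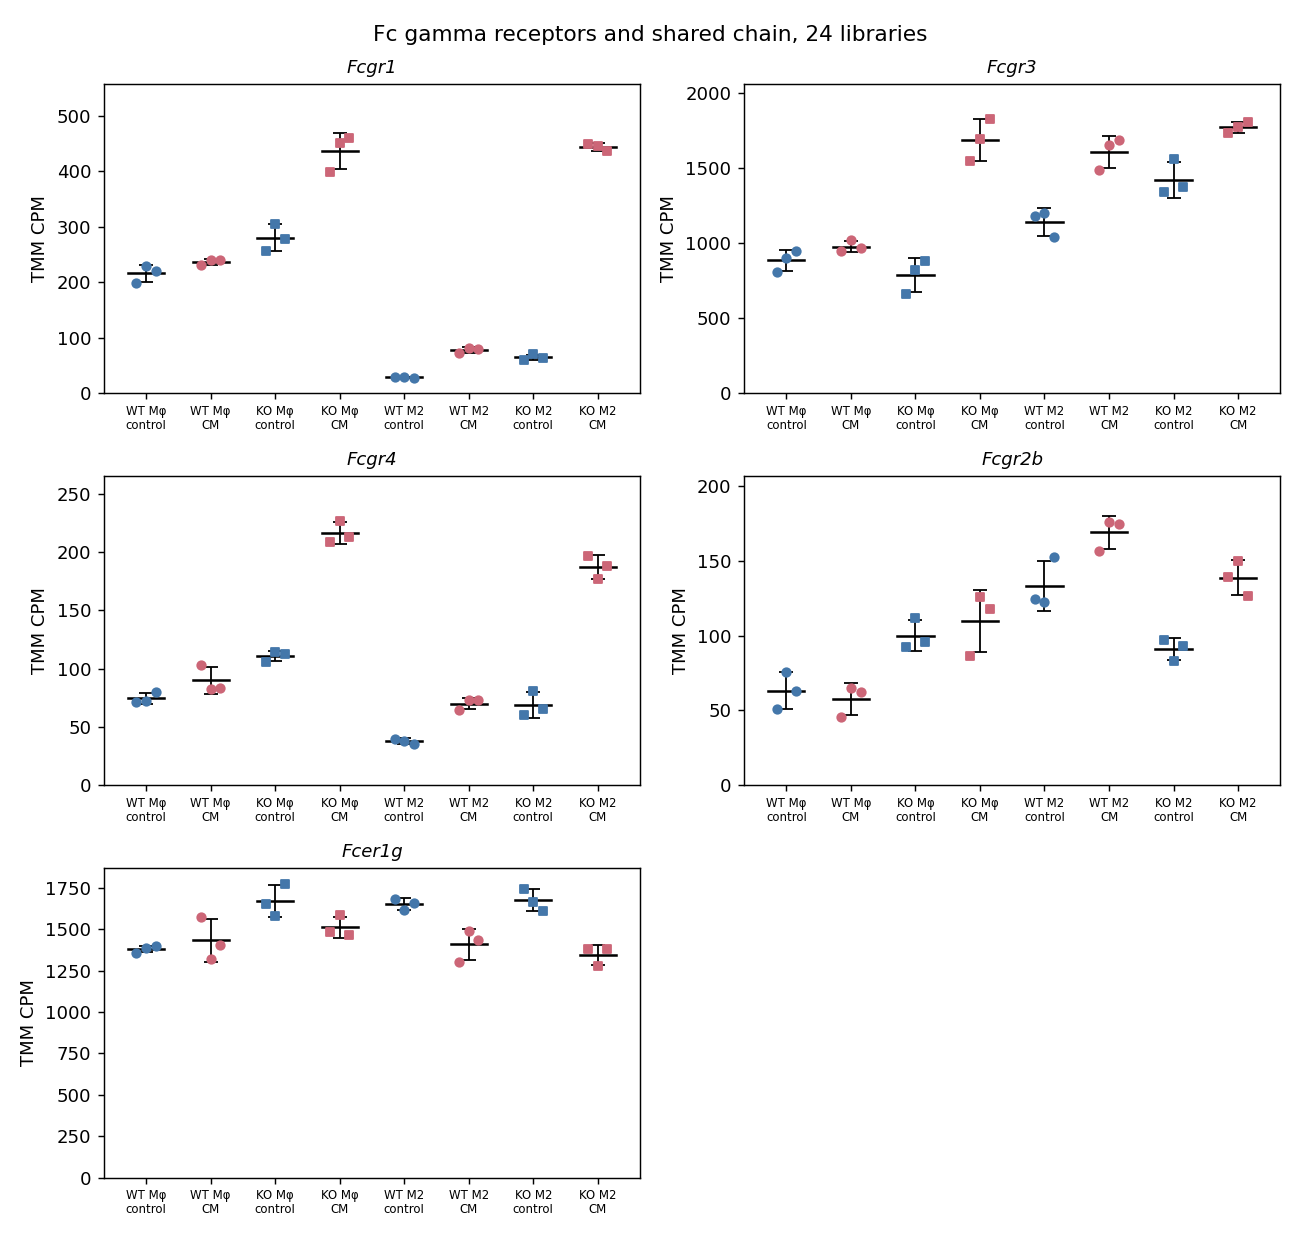
Level of the activating Fcgr1, Fcgr3 and Fcgr4, the inhibitory Fcgr2b and the shared chain Fcer1g in the 24 libraries of batch 1, in CPM on a linear axis that differs between panels, by group. Circles are WT and squares TRAP1 KO libraries, blue marks control medium and red MPNST-CM, lines are means and bars SD of 3 libraries; Fcgr1 in M2 cells is at 28.4 to 81.7 CPM in 3 groups and at 437 to 449.98 CPM in TRAP1 KO cells in MPNST-CM.

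The first question was how each kind of macrophage answered to MPNST-CM. In WT Mφ the scavenger receptors Msr1 and Stab1 rose, and no Fc gamma receptor passed the test. Msr1 had a log2 fold change of 0.93 (SE 0.07, adjusted p = 6.86e-11 by edgeR's quasi-likelihood test) and Stab1 one of 0.63 (SE 0.16, adjusted p = 0.00433), each higher in all 3 libraries than in any control library. Fcgr4 had a log2 fold change of 0.27 with an adjusted p of 0.0588, and its 3 libraries in MPNST-CM were above all 3 in control medium. The p passed with median-of-ratios size factors (0.0482), in DESeq2 (0.0445), and in 8 of the 24 fits that left out 1 library (log2 fold change 0.29 to 0.32, adjusted p 0.021 to 0.0485; without WT Mφ in MPNST-CM replicate 2, WT M2 in MPNST-CM replicate 1, or any of the 6 M2 libraries in control medium). Log2 fold changes of the others were −0.30 for Cd163, 0.10 for Scarb1, 0.14 for Fcgr1, −0.13 for Fcgr2b, 0.14 for Fcgr3 and 0.05 for Fcer1g. Thus 2 of the 10 genes were higher, where 11.3% of all genes were, and 0 were lower, where 9.96% of all genes were. By edgeR's unadjusted p under 0.05, 0 of the 10 were lower as well, and DESeq2 gave 0. The median log2 fold change of the 10 was 0.12, against −0.02 over all genes tested. Over the 27 libraries Stab1 had a log2 fold change of 0.79 and an adjusted p of 0.0556.

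In TRAP1 KO Mφ the answer was broad: Msr1, Cd163 and the 3 activating Fc gamma receptors rose, and Scarb1 fell. Msr1 rose 4.50-fold (log2 fold change 2.17, SE 0.07, adjusted p = 7.00e-19), from the lowest level of all groups to one that overlapped with WT. Scarb1 fell by 1.58 on the log2 scale (SE 0.09, adjusted p = 1.60e-13). Fcgr3 had a log2 fold change of 1.10 (SE 0.09, adjusted p = 3.93e-10), Fcgr4 of 0.96 (SE 0.10, adjusted p = 1.12e-08) and Fcgr1 of 0.64 (SE 0.08, adjusted p = 3.47e-07). Cd163 followed with 1.18 (SE 0.22, adjusted p = 0.000113). In all 6 the 3 libraries in MPNST-CM were separate from the 3 in control medium. Stab1, Fcgr2b and Fcer1g did not pass (log2 fold changes 0.04, 0.13 and −0.14). Marco did not pass either, at −1.01 (adjusted p = 0.0791), and passed without TRAP1 KO M2 in MPNST-CM replicate 1 (adjusted p = 0.0387). In sum 5 of the 10 genes were higher and 1 lower, where 14.8% and 18.1% of all genes were, and the median was 0.39 against −0.04. With all 27 libraries, of which none was added to these groups, Fcgr1 had a log2 fold change of 0.69 and an adjusted p of 0.571.

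In WT M2 cells receptors of both kinds rose. Stab1 and Fcgr1 rose most, followed by Fcgr4, Fcgr3 and Msr1. Stab1 rose 3.68-fold (log2 fold change 1.88, SE 0.19, adjusted p = 2.57e-08) and Fcgr1 2.67-fold (1.42, SE 0.09, adjusted p = 2.26e-12), and both stayed under every Mφ library. Fcgr4 had a log2 fold change of 0.89 (SE 0.11, adjusted p = 2.92e-07), Fcgr3 of 0.49 (SE 0.09, adjusted p = 0.00022) and Msr1 of 0.36 (SE 0.07, adjusted p = 0.000122). In each of these 5 genes all libraries in MPNST-CM were above all libraries in control medium. Fcer1g fell by 0.23 (SE 0.07, adjusted p = 0.0215). This call was lost with Rplp0 scaling (−0.01, adjusted p = 0.946), without the filter (adjusted p = 0.249), and without any 1 of WT M2 in MPNST-CM replicate 1 (−0.11, adjusted p = 0.389), the WT M2 libraries in control medium replicates 2, 3 and 4 (adjusted p 0.223, 0.141 and 0.18) or the TRAP1 KO M2 libraries in control medium replicates 1, 2 and 3 (adjusted p 0.123, 0.091 and 0.1). Scarb1 (−0.13), Cd163 (0.48, adjusted p = 0.163) and Fcgr2b (0.34, adjusted p = 0.0939) did not pass. Without WT M2 in control medium replicate 3, Cd163 passed (0.80, adjusted p = 0.0443), and without replicate 4 Fcgr2b did (0.50, adjusted p = 0.0388). With Rplp0 scaling both passed as higher (Cd163 0.70, adjusted p = 0.0469; Fcgr2b 0.56, adjusted p = 0.00627), and Fcgr2b also without the filter (0.41, adjusted p = 0.000889) and with only the groups compared (0.35, adjusted p = 0.0207). Here 5 of the 10 genes were higher and 1 lower, where 11.2% and 13.3% of all genes were, and the median was 0.42 against −0.03. The counts were 7 and 0 with Rplp0 scaling, 6 and 0 without the filter, and 6 and 1 with only the groups compared. With all 27 libraries the log2 fold changes of Fcgr1 (1.47, adjusted p = 0.264), Fcgr4 (0.94, adjusted p = 0.116), Msr1 (0.41, adjusted p = 0.169) and Fcer1g (−0.17) did not pass.

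In TRAP1 KO M2 cells Fcgr1 showed the largest answer of the set. It rose 6.86-fold (log2 fold change 2.78, SE 0.09, adjusted p = 4.49e-19). Fcgr4 rose 2.71-fold (1.44, SE 0.10, adjusted p = 7.06e-12), and Stab1 (0.88, SE 0.18, adjusted p = 0.000363), Fcgr2b (0.61, SE 0.15, adjusted p = 0.00212), Msr1 (0.52, SE 0.07, adjusted p = 2.88e-07) and Fcgr3 (0.32, SE 0.09, adjusted p = 0.00897) rose less. Scarb1 fell by 1.64 (SE 0.09, adjusted p = 7.27e-14), and Fcer1g fell by 0.31 (SE 0.07, adjusted p = 0.00106). The libraries of both media were separate for all 8. Cd163 had a log2 fold change of 0.13. Counted together, 6 of the 10 genes were higher and 2 lower, where 16.7% and 20.2% of all genes were, and the median was 0.57 against −0.01. Both groups hold a library that stood apart in batch 2. Once batch 2 was included, Fcgr1 had a log2 fold change of 0.52 (adjusted p = 0.676), Fcgr4 of 0.70 (adjusted p = 0.171), Scarb1 of −0.63 (adjusted p = 0.263), Stab1 of 0.44 (adjusted p = 0.299), Msr1 of 0.18 (adjusted p = 0.525), Fcgr3 of 0.27 (adjusted p = 0.202) and Fcer1g of −0.23 (adjusted p = 0.0973), so that only the call of Fcgr2b was left.

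The answer to MPNST-CM was then compared between genotypes by the interaction of genotype and medium, which is positive where TRAP1 KO cells rose more or fell less. In Mφ the interaction passed for Msr1 (1.24, SE 0.09), Cd163 (1.49, SE 0.31), Fcgr3 (0.96, SE 0.13), Fcgr4 (0.69, SE 0.14) and Fcgr1 (0.50, SE 0.11), all in the positive direction, and for Scarb1 in the negative one (−1.68, SE 0.13). These are 5 genes higher and 1 lower, where 8.17% and 11.5% of all genes were. In M2 it passed for Fcgr1 (1.36, SE 0.12) and Fcgr4 (0.55, SE 0.15) in the positive direction and for Scarb1 (−1.51, SE 0.13) and Stab1 (−1.004, SE 0.27) in the negative one, 2 higher and 2 lower, where 9.36% and 10.8% of all genes were. Fcgr1, Fcgr4 and Scarb1 thus differed by genotype in the same direction in both kinds of cells. Stab1 in Mφ had an interaction of −0.59 (adjusted p = 0.0612), which passed without WT Mφ in MPNST-CM replicate 2 (−0.72, adjusted p = 0.0207), TRAP1 KO Mφ in MPNST-CM replicate 2 (−0.78, adjusted p = 0.0132) or WT M2 in MPNST-CM replicate 1 (−0.58, adjusted p = 0.0298), with Rplp0 scaling (−0.62, adjusted p = 0.0297) and without the filter (−0.60, adjusted p = 0.0155). The interaction of Fcgr4 in M2 was lost with Rplp0 scaling (0.28, adjusted p = 0.187), and that of Fcgr3, −0.18 with TMM, passed with it (−0.46, adjusted p = 0.00249). Marco did not pass in M2 and passed without TRAP1 KO M2 in MPNST-CM replicate 1 (adjusted p = 0.0159), and no value is given since some of the groups were at or under the floor in every library. Fitted on the 27 libraries, the M2 interactions of Fcgr1 (−0.95) and Fcgr4 (−0.24) had the opposite sign and those of Stab1 (−1.495) and Scarb1 (−0.56) did not pass, and in Mφ those of Cd163 (1.29), Scarb1 (−1.52), Fcgr1 (0.38) and Fcgr4 (0.52) did not pass.

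**Figure D3:**
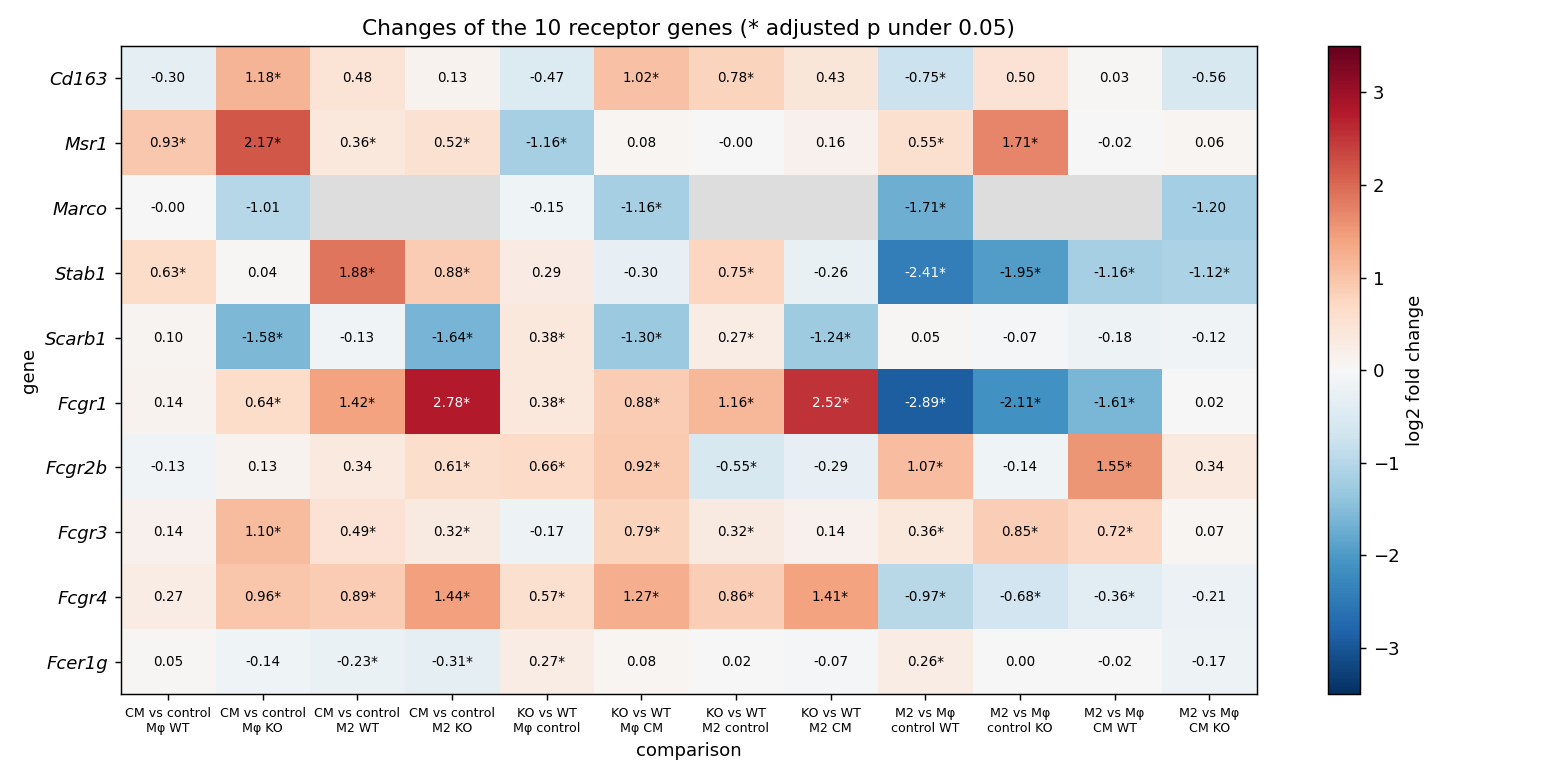
Log2 fold change of each receptor (one line per gene) in the 12 pairwise comparisons (one column each), from edgeR on the 24 libraries of batch 1; red is higher and blue lower in the group named first, and an asterisk marks an adjusted p under 0.05. Grey cells are Marco in comparisons with a group at 3 or fewer counts in every library; the strongest rises and falls are those of Fcgr1, 2.78 in TRAP1 KO M2 cells in MPNST-CM and −2.89 in WT M2 against WT Mφ.

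The genes around the receptors were read against all genes tested, of which 11.3% rose and 9.96% fell with MPNST-CM in WT Mφ (median −0.02), 14.8% and 18.1% in TRAP1 KO Mφ (−0.04), 11.2% and 13.3% in WT M2 (−0.03), and 16.7% and 20.2% in TRAP1 KO M2 (−0.01). Of 14 tested other scavenger and uptake receptors, 1 rose and 6 fell in WT Mφ (median log2 fold change −0.35), 1 rose and 9 fell in TRAP1 KO Mφ (−1.18), 1 rose and 8 fell in WT M2 (−0.32), and 2 rose and 12 fell in TRAP1 KO M2 (−0.93). Mrc1, the mannose receptor, rose by 2.65 in TRAP1 KO M2 (mean 558 to 3514 CPM), whereas the beta-glucan receptor Clec7a fell by 2.90 (957 to 128 CPM), Cd5l by 2.34 and Stab2, at few CPM, by 3.63. In WT Mφ Clec7a fell by 1.58, Cd5l by 1.32 and Axl by 0.84. Among 20 kinases, adaptors and phosphatases downstream of Fc gamma receptors, 2 rose and 3 fell in WT Mφ (median −0.05), 4 and 6 in TRAP1 KO Mφ (−0.11), 3 and 8 in WT M2 (−0.19), and 6 and 7 in TRAP1 KO M2 (−0.12). In TRAP1 KO M2 the kinase Fgr fell by 2.15, Vav3 and Lcp2 rose by 1.22 and 1.17, and Dock2 fell by 1.12.

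Of 14 tested genes for other Fc receptors, partners of the FcRγ chain and related receptors, 4 rose and 6 fell in WT Mφ (median −0.21), 5 and 6 in TRAP1 KO Mφ (−0.21), 3 and 6 in WT M2 (−0.20), and 4 and 8 in TRAP1 KO M2 (−0.58). The C-type lectins Clec4e, Clec4n and Clec4d, which signal through Fcer1g, rose in all 4 kinds of cells. In TRAP1 KO M2, Clec4e rose by 3.93 (15.8 to 242 CPM), Clec4n by 3.21 (100.5 to 928 CPM) and Clec4d by 2.18 (523 to 2367 CPM), while the chain Fcer1g itself fell by 0.31. Of 6 tested ligands, partners and the sheddase of scavenger receptors, 1 rose and 3 fell in WT Mφ (median −0.37), 1 and 4 in TRAP1 KO Mφ (−0.81), 1 and 5 in WT M2 (−0.49), and 1 and 4 in TRAP1 KO M2 (−0.99). Hp, the ligand of Cd163, fell by 3.26 in TRAP1 KO M2 from a mean of 4.90 CPM, Tnfsf12 by 1.22, the sheddase gene Adam17 by 1.19 and Apoe by 0.78. Of 7 transcription factors, 2 fell in WT Mφ (median −0.04), 2 rose and 2 fell in TRAP1 KO Mφ (0.05), 3 rose and 3 fell in WT M2 (−0.13), and 3 rose and 1 fell in TRAP1 KO M2 (0.09). In TRAP1 KO M2, Maf rose by 1.86 and Irf8 fell by 0.70.

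The next question was how TRAP1 KO cells differed from WT cells in the same medium. In Mφ in control medium, Msr1 was lower in TRAP1 KO and Fcgr2b, Fcgr4, Fcgr1, Scarb1 and Fcer1g were higher. Msr1 fell by 1.16 on the log2 scale (SE 0.07, adjusted p = 1.43e-12). Fcgr2b had a log2 fold change of 0.66 (SE 0.15, adjusted p = 0.00273), Fcgr4 of 0.57 (SE 0.10, adjusted p = 0.000142), Fcgr1 of 0.38 (SE 0.08, adjusted p = 0.00127), Scarb1 of 0.38 (SE 0.09, adjusted p = 0.00266) and Fcer1g of 0.27 (SE 0.07, adjusted p = 0.00847). In each of the 6 genes all TRAP1 KO libraries were on 1 side of all WT libraries. Cd163 (−0.47), Stab1 (0.29), Fcgr3 (−0.17) and Marco (−0.15) did not pass. This made 5 genes higher and 1 lower, where 8.64% and 7.97% of all genes were, and the median was 0.28 against 0.03. Without TRAP1 KO Mφ in control medium replicate 3 the call of Fcer1g was lost (0.23, adjusted p = 0.0662). When batch 2 was included, the calls of Fcgr1 (0.48, adjusted p = 0.801), Fcgr4 (0.73, adjusted p = 0.222), Scarb1 (0.20, adjusted p = 0.847) and Fcer1g (0.19, adjusted p = 0.234) were lost.

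In Mφ in MPNST-CM the difference between genotypes covered all Fc gamma receptors. Fcgr4 was 2.40-fold higher in TRAP1 KO (log2 fold change 1.27, SE 0.10, adjusted p = 8.72e-11), Fcgr2b 1.90-fold (0.92, SE 0.15, adjusted p = 2.88e-05), Fcgr1 1.84-fold (0.88, SE 0.08, adjusted p = 1.47e-09) and Fcgr3 1.73-fold (0.79, SE 0.09, adjusted p = 1.64e-07). Cd163 was higher as well (1.02, SE 0.22, adjusted p = 0.000444). Scarb1 was lower, with a log2 fold change of −1.30 (SE 0.09, adjusted p = 9.40e-12). In all 6 genes the genotypes were separate. Marco passed at −1.16 (SE 0.42, adjusted p = 0.0330), a call that was lost without the filter (adjusted p = 0.0904) and without WT Mφ in MPNST-CM replicate 1 (−0.98, adjusted p = 0.123), TRAP1 KO Mφ in MPNST-CM replicate 2 (−1.08, adjusted p = 0.0993) or replicate 3 (−1.11, adjusted p = 0.0903). Msr1, which had differed in control medium, had a log2 fold change of 0.08, and Fcer1g also one of 0.08. Stab1 had −0.30, which passed without WT Mφ in MPNST-CM replicate 2 (−0.43, adjusted p = 0.0397) or TRAP1 KO Mφ in MPNST-CM replicate 2 (−0.48, adjusted p = 0.024). The set had 5 genes higher and 2 lower, where 19.1% and 19.2% of all genes were, and the median was 0.43 against 0.04. In the fit with batch 2, Fcgr1 (0.86, adjusted p = 0.433) and Marco (−1.17, adjusted p = 0.406) did not pass.

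In M2 in control medium Fcgr1 and Fcgr4 were again higher in TRAP1 KO, and Fcgr2b was lower, opposite to Mφ. Fcgr1 was 2.23-fold higher (log2 fold change 1.16, SE 0.09, adjusted p = 5.37e-10) and Fcgr4 1.82-fold (0.86, SE 0.11, adjusted p = 1.35e-06). Fcgr2b fell by 0.55 (SE 0.15, adjusted p = 0.0124). Smaller rises passed for Cd163 (0.78, adjusted p = 0.0246), Stab1 (0.75, adjusted p = 0.0139), Fcgr3 (0.32, adjusted p = 0.0189) and Scarb1 (0.27, adjusted p = 0.0395). Msr1 was at 0.999-fold and Fcer1g had a log2 fold change of 0.02. This gives 6 genes higher and 1 lower, where 8.56% and 7.87% of all genes were, and the median was 0.29 against 0.02.

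Most of the smaller calls in M2 in control medium rested on single libraries. Stab1 was lost without TRAP1 KO replicate 1 (0.67, adjusted p = 0.0648) or 2 (0.66, adjusted p = 0.0759) or WT replicate 3 (0.69, adjusted p = 0.0689) or 4 (0.71, adjusted p = 0.0629). Cd163 was lost without TRAP1 KO replicate 2 (0.73, adjusted p = 0.0807) or 3 (0.74, adjusted p = 0.0806) or WT replicate 2 (0.52, adjusted p = 0.181) or 4 (0.81, adjusted p = 0.0651). For Fcgr3 the call ended without TRAP1 KO replicate 2 (0.23, adjusted p = 0.188) or 3 (0.32, adjusted p = 0.0618) or any WT replicate from 2 to 4 (0.33, 0.34 and 0.24, adjusted p 0.063, 0.0532 and 0.183). Scarb1 did not pass without any 1 of the 6 libraries (0.17 to 0.30, adjusted p 0.0526 to 0.31), with median-of-ratios size factors (adjusted p = 0.0602), in DESeq2 (adjusted p = 0.0512) or without the filter (adjusted p = 0.11). Fcgr2b was lost without TRAP1 KO replicate 2 (−0.51, adjusted p = 0.0611) or WT replicate 4 (−0.45, adjusted p = 0.084) and with Rplp0 scaling (−0.22, adjusted p = 0.265). With Rplp0 scaling Msr1 (0.32, adjusted p = 0.00305) and Fcer1g (0.35, adjusted p = 0.00778) passed. Fcgr1 and Fcgr4 passed in every fit that left out 1 library. All 27 libraries add the one labelled TRAP1 KO M2 in control medium, at 779 CPM of Fcgr1 and 185 CPM of Fcgr4, and the log2 fold changes were then 3.07 (adjusted p = 0.0184) and 1.36 (adjusted p = 0.0178), so this pass is not separate support for the values from batch 1. In that fit Cd163 (0.67, adjusted p = 0.179), Fcgr3 (0.26, adjusted p = 0.227) and Scarb1 (−0.0068, adjusted p = 0.994) did not pass.

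In M2 in MPNST-CM the genotypes differed in 3 genes, with no overlap in any of them. Fcgr1 was 5.72-fold higher in TRAP1 KO (log2 fold change 2.52, SE 0.09, adjusted p = 8.54e-18) and Fcgr4 2.67-fold (1.41, SE 0.10, adjusted p = 1.70e-11). Scarb1 had a log2 fold change of −1.24 (SE 0.09, adjusted p = 3.15e-11). The activating Fcgr3 (0.14) did not pass, nor did Fcgr2b (−0.29, adjusted p = 0.138), Cd163 (0.43), Msr1 (0.16, adjusted p = 0.0607), Stab1 (−0.26) and Fcer1g (−0.07). Msr1 passed without TRAP1 KO M2 in MPNST-CM replicate 3 (0.20, adjusted p = 0.0338), and Stab1 without WT M2 in MPNST-CM replicate 1 (−0.51, adjusted p = 0.0168). Fcgr2b passed as lower without the filter (−0.37, adjusted p = 0.00286) and with only the groups compared (−0.34, adjusted p = 0.0172). Thus 2 genes were higher and 1 lower, where 17.2% and 16.8% of all genes were, and the median was 0.15 against 0.05, shares close to those of all genes. Batch 2 included, Fcgr1 had a log2 fold change of 2.11 (adjusted p = 0.0633) and Scarb1 of −0.57 (adjusted p = 0.332), and Fcgr4 still passed.

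Of all genes tested, 8.64% were higher and 7.97% lower in TRAP1 KO than in WT in Mφ in control medium (median 0.03), 19.1% and 19.2% in Mφ in MPNST-CM (0.04), 8.56% and 7.87% in M2 in control medium (0.02), and 17.2% and 16.8% in M2 in MPNST-CM (0.05). Of the 14 tested other scavenger and uptake receptors, 7 were higher and 3 lower in TRAP1 KO than in WT in Mφ in control medium (median 0.16), 2 and 7 in Mφ in MPNST-CM (−0.45), 5 and 4 in M2 in control medium (0.06), and 4 and 5 in M2 in MPNST-CM (−0.18). In M2 in MPNST-CM, Clec7a had a log2 fold change of −2.03 (522 to 128 CPM), Axl of −1.92, Colec12 of −1.91 and Cd36 of −0.89. Of the 20 signalling genes, 3 were higher and 3 lower in Mφ in control medium (median −0.01), 4 and 3 in Mφ in MPNST-CM (0.09), 2 and 4 in M2 in control medium (−0.09), and 3 and 4 in M2 in MPNST-CM (0.12), among them Lyn (0.64), Lcp2 (0.63) and Prkcd (−0.44). Other Fc receptors and partners had 4 higher and 2 lower of 14 in Mφ in control medium (median 0.14), 9 and 3 in Mφ in MPNST-CM (0.24), 4 and 3 in M2 in control medium (0.08), and 5 and 3 in M2 in MPNST-CM (0.0059). Clec4n differed most in Mφ in MPNST-CM (2.15, 222 to 985 CPM) and Clec4e most in M2 in MPNST-CM (1.59, 80.6 to 242 CPM). Ligands and partners had 2 of 6 higher in Mφ in control medium (median 0.35), 2 higher and 1 lower in Mφ in MPNST-CM (0.12), 2 higher in M2 in control medium (0.32), and 1 higher and 2 lower in M2 in MPNST-CM (0.02), the others not passing. Apoe was higher in TRAP1 KO in all 4 comparisons (0.65, 0.60, 1.19 and 1.00). Of the 7 transcription factors, 4 were higher and 1 lower in Mφ in control medium (median 0.33), 4 higher in Mφ in MPNST-CM (0.39), 2 higher and 1 lower in M2 in control medium (−0.06), and 5 higher in M2 in MPNST-CM (0.60), the others not passing. Beside the difference of Fcgr1 in M2 in MPNST-CM stood Maf with 0.80 and Irf8 with 0.60.

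A further question was how IL-4 had set these receptors, from M2 against Mφ within a medium and genotype. In WT cells in control medium 9 of the 10 genes differed. Fcgr1 was 7.43-fold lower in M2 (log2 fold change −2.89, SE 0.09, adjusted p = 3.17e-19), Stab1 5.30-fold lower (−2.41, SE 0.19, adjusted p = 7.14e-11) and Fcgr4 1.96-fold lower (−0.97, SE 0.11, adjusted p = 2.53e-08). Marco (−1.71, SE 0.46, adjusted p = 0.00461) and Cd163 (−0.75, SE 0.24, adjusted p = 0.0135) were lower too. Fcgr2b was 2.10-fold higher (1.07, SE 0.15, adjusted p = 3.50e-06), Msr1 1.47-fold (0.55, SE 0.07, adjusted p = 1.38e-07), Fcgr3 1.29-fold (0.36, SE 0.09, adjusted p = 0.0029) and Fcer1g 1.20-fold (0.26, SE 0.07, adjusted p = 0.00598). Scarb1, with 0.05, did not pass. The inhibitory receptor and the activating Fcgr3 thus rose with IL-4 while the activating Fcgr1 and Fcgr4 fell. This gives 4 genes higher and 5 lower, where 19.1% and 18.1% of all genes were, and the median was −0.35 against −0.03. The call of Cd163 was lost without WT Mφ in control medium replicate 1 (−0.67, adjusted p = 0.0555) or WT M2 in control medium replicate 2 (−0.52, adjusted p = 0.11). Across the 27 libraries Cd163 (−0.55, adjusted p = 0.209), Marco (−1.64, adjusted p = 0.23), Fcgr4 (−0.78, adjusted p = 0.0933) and Fcer1g (0.21, adjusted p = 0.0811) did not pass.

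In TRAP1 KO cells in control medium Fcgr1 (−2.11, SE 0.09, adjusted p = 1.19e-16), Stab1 (−1.95, SE 0.18, adjusted p = 1.43e-09) and Fcgr4 (−0.68, SE 0.10, adjusted p = 6.41e-06) were likewise lower in M2. Msr1 was 3.27-fold higher (1.71, SE 0.07, adjusted p = 8.37e-17) and Fcgr3 1.81-fold higher (0.85, SE 0.09, adjusted p = 5.38e-08). Marco was called lower, from 15 counts in every Mφ library to 1 or 2 in M2, and no fold is given since all 3 M2 libraries were under the floor. Fcgr2b, which had risen in WT cells, had a log2 fold change of −0.14 and did not pass, and neither did Cd163 (0.50), Scarb1 (−0.07) or Fcer1g (0.00). With Rplp0 scaling Cd163 (0.82, adjusted p = 0.0105), Scarb1 (0.26, adjusted p = 0.0222) and Fcer1g (0.33, adjusted p = 0.0088) passed. Here 2 genes were higher and 4 lower, where 15.6% and 12.9% of all genes were, and the median was −0.10 against −0.03. With all 27 libraries Fcgr1 (−0.17, adjusted p = 0.895) and Fcgr4 (−0.15, adjusted p = 0.794) did not pass, and the fitted change of Marco had the opposite sign.

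In WT cells in MPNST-CM the pattern of IL-4 was kept in part. Fcgr1 was 3.05-fold lower in M2 (−1.61, SE 0.08, adjusted p = 3.26e-14) and Stab1 2.23-fold lower (−1.16, SE 0.16, adjusted p = 3.23e-06). Fcgr2b was 2.92-fold higher (1.55, SE 0.15, adjusted p = 2.78e-08) and Fcgr3 1.65-fold higher (0.72, SE 0.09, adjusted p = 1.40e-06). Marco was called lower, from 23, 17 and 17 counts to 2, 2 and 1. Fcgr4 fell by 0.36 (SE 0.10, adjusted p = 0.00973). That call was lost with Rplp0 scaling (−0.09, adjusted p = 0.58), without the filter (adjusted p = 0.0549), with only the groups compared (adjusted p = 0.125) and without replicate 1 of WT Mφ (−0.25, adjusted p = 0.0949) or of WT M2 in MPNST-CM (−0.27, adjusted p = 0.0775). Cd163 (0.03), Msr1 (−0.02), Scarb1 (−0.18) and Fcer1g (−0.02) did not pass, though Msr1 did with Rplp0 scaling (0.25, adjusted p = 0.0176). The count was 2 higher and 4 lower, where 11.9% and 13% of all genes were, and the median was −0.10 against −0.05. With all 27 libraries Fcgr1 (−1.59, adjusted p = 0.207), Fcgr4 (−0.34, adjusted p = 0.628) and Marco (adjusted p = 0.0919) did not pass.

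In TRAP1 KO cells in MPNST-CM M2 and Mφ were closest. Stab1 alone passed, 2.17-fold lower in M2 (−1.12, SE 0.16, adjusted p = 1.93e-05). The log2 fold change of Fcgr1 was 0.02 (SE 0.08, adjusted p = 0.920), while Fcgr4 had −0.21, Fcgr3 0.07, Fcgr2b 0.34, Msr1 0.06, Scarb1 −0.12, Fcer1g −0.17, Cd163 −0.56 and Marco −1.20. Without TRAP1 KO M2 in MPNST-CM replicate 2, Marco was called lower (adjusted p = 0.0415), and no fold is given since the 2 libraries left had 0 and 3 counts. Of the 10 genes 0 were higher and 1 lower, where 6.71% and 4.47% of all genes were, and the median was −0.15 against 0.01. By edgeR's unadjusted p under 0.05, 6 of the 10 were counted: Fcgr2b on the higher side, and Cd163, Marco, Fcgr4 and Fcer1g with Stab1 on the lower. DESeq2 gave 0 higher by adjusted p. With Rplp0 scaling Fcgr1 (0.32, adjusted p = 0.00196), Fcgr2b (0.63, adjusted p = 0.00281), Fcgr3 (0.37, adjusted p = 0.001) and Msr1 (0.35, adjusted p = 0.00211) passed as higher, and Fcgr2b also without the filter (0.34, adjusted p = 0.0225).

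Whether the effect of IL-4 depended on the medium was tested by the interaction of IL-4 and medium, which is positive where M2 cells rose more in MPNST-CM than Mφ did. In WT cells it passed for Fcgr1 (1.28, SE 0.12), Stab1 (1.25, SE 0.25) and Fcgr4 (0.62, SE 0.15), all positive, and for Msr1, which was negative (−0.57, SE 0.09), so 3 were higher and 1 lower, where 5.23% and 6.91% of all genes were. In TRAP1 KO cells it passed for Fcgr1 (2.14, SE 0.12), Stab1 (0.83, SE 0.24) and Fcgr4 (0.47, SE 0.14) in the positive direction and for Msr1 (−1.65, SE 0.09), Cd163 (−1.05, SE 0.31) and Fcgr3 (−0.78, SE 0.13) in the negative one. That is 3 higher and 3 lower, where 5.48% and 6.01% of all genes were. In TRAP1 KO cells the calls of Stab1, Fcgr4 and Cd163 depended on single libraries. Stab1 was lost without Mφ in MPNST-CM replicate 1 or 3 (0.74 and 0.76), Mφ in control medium replicate 2 (0.74), M2 in MPNST-CM replicate 2 (0.77) or M2 in control medium replicate 3 (0.70). Cd163 was lost without replicate 2 of Mφ in control medium (−0.94), Mφ in MPNST-CM (−0.96), M2 in MPNST-CM (−0.88) or M2 in control medium (−1.05), or without M2 in control medium replicate 3 (−1.06). Fcgr4 was lost without replicate 1 or 3 of Mφ in MPNST-CM (0.45 and 0.46), M2 in MPNST-CM (0.44 and 0.47) or M2 in control medium (0.36 and 0.41), or without Mφ in control medium replicate 2 or 3 (0.45 and 0.46). In WT cells Fcgr3 had an interaction of 0.35 (adjusted p = 0.0851), which passed without WT M2 in MPNST-CM replicate 1 (0.45, adjusted p = 0.0408) or TRAP1 KO Mφ in control medium replicate 1 (adjusted p = 0.0482), with Rplp0 scaling (0.57, adjusted p = 0.00104), without the filter (0.42, adjusted p = 0.00806) and with only the groups compared (0.43, adjusted p = 0.0279). Fcgr2b, at 0.48 (adjusted p = 0.159) in WT and 0.47 (adjusted p = 0.176) in TRAP1 KO cells, passed in WT cells with Rplp0 scaling (0.68, adjusted p = 0.0427) and in both without the filter (0.54 and 0.47, adjusted p 0.00706 and 0.0269). In WT cells Fcer1g had −0.28 (adjusted p = 0.0759), which passed without WT Mφ in MPNST-CM replicate 2 (−0.34, adjusted p = 0.036). Marco in TRAP1 KO cells passed only without M2 in MPNST-CM replicate 1 (adjusted p = 0.0275). Over the 27 libraries the calls of Msr1 (−0.61), Stab1 (1.15), Fcgr1 (1.16) and Fcgr4 (0.44) in WT cells and of Cd163 (−1.20), Stab1 (0.35), Fcgr1 (−0.17) and Fcgr4 (−0.31) in TRAP1 KO cells were lost. Comparisons of this kind share groups with the pairwise ones, so their values are given side by side and no overlap between them is drawn.

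Over all genes tested, 19.1% were higher and 18.1% lower in M2 than in Mφ in WT cells in control medium (median −0.03), 15.6% and 12.9% in TRAP1 KO cells in control medium (−0.03), 11.9% and 13% in WT cells in MPNST-CM (−0.05), and 6.71% and 4.47% in TRAP1 KO cells in MPNST-CM (0.0082). Around the receptors, 5 of the 14 tested other scavenger and uptake receptors were higher and 3 lower in M2 than in Mφ in WT cells in control medium (median −0.04), 6 and 5 in TRAP1 KO cells in control medium (0.02), 4 and 3 in WT cells in MPNST-CM (0.07), and 3 and 2 in TRAP1 KO cells in MPNST-CM (0.17). In WT cells in control medium Cd36 rose by 3.15 (326 to 2900.04 CPM), Clec7a by 3.03 (170.0 to 1393 CPM) and Stab2 by 1.95, while Cd5l fell by 1.47. Of the 20 signalling genes 5 were higher and 7 lower in WT cells in control medium (median 0.03), 3 and 7 in TRAP1 KO cells in control medium (−0.16), 2 and 9 in WT cells in MPNST-CM (−0.21), and 7 were lower in TRAP1 KO cells in MPNST-CM (−0.15) with 13 not passing. Prkcd rose by 1.84, Lat2 by 1.07 and Dock2 by 0.98, and the inhibitory adaptor gene Dok3 fell by 1.495, in WT cells in control medium. Other Fc receptors and partners had 7 higher and 6 lower of 14 in WT cells in control medium (median 0.10), 6 and 5 in TRAP1 KO cells in control medium (0.17), 5 and 4 in WT cells in MPNST-CM (0.07), and 3 lower in TRAP1 KO cells in MPNST-CM (−0.12) with 11 not passing. Cd247, at few CPM, rose by 2.22, and Fcrl1, Trim21 and Clec4e fell by 2.14, 1.56 and 1.38 in WT cells in control medium. Ligands and partners had 3 of 6 higher and 1 lower (median 0.59), 4 and 1 (0.48), 3 and 1 (0.24), and 2 and 1 (0.02) in the same order of comparisons, with Apoe lower in all 4 (−1.47, −0.93, −1.02 and −0.62). Of the 7 transcription factors 3 were higher and 3 lower, 1 and 5, 1 and 4, and 2 and 2 (medians −0.0049, −0.39, −0.54 and −0.22). Beside the fall of Fcgr1 in WT cells in control medium, Maf fell by 2.93, whereas in TRAP1 KO cells in MPNST-CM, where Fcgr1 did not pass the test, Maf fell by 0.67.

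The balance of inhibitory to activating receptors was described by the log2 ratio of Fcgr2b counts to the summed counts of Fcgr1, Fcgr3 and Fcgr4 within a library, with no test since it is a score over members. With this denominator WT M2 had the highest ratio, −3.33, −3.38 and −2.85 in control medium and −3.37, −3.36 and −3.40 in MPNST-CM, and these 6 libraries were above all others. That rank was lost with other denominators: over Fcgr3 and Fcgr4, TRAP1 KO Mφ in control medium had a mean of −3.16 against −3.15 and −3.31 in WT M2 in control medium and in MPNST-CM, and over Fcgr3 alone it was highest, with −2.97 against −3.11 and −3.25. The other M2 cells, TRAP1 KO, had −3.91, −4.37 and −4.02 in control medium and −4.10, −4.00 and −4.26 in MPNST-CM. Among Mφ, TRAP1 KO in control medium had −3.47, −3.47 and −3.73, above WT in control medium with −4.40, −3.99 and −4.31. In MPNST-CM the ratios were −4.82, −4.36 and −4.37 in WT Mφ and −4.65, −4.24 and −4.41 in TRAP1 KO Mφ, and these overlapped. The share of Fcgr2b was also read as percent of the summed counts of Fcgr2b, Fcgr1, Fcgr3 and Fcgr4. It was 9.98 ± 1.88% in WT M2 and 5.56 ± 0.851% in TRAP1 KO M2 in control medium (SD, n = 3). In MPNST-CM it was 8.77 ± 0.117% and 5.45 ± 0.469%. In Mφ it was 5.08 ± 0.731% in WT and 7.85 ± 0.720% in TRAP1 KO in control medium, and 4.23 ± 0.699% and 4.45 ± 0.596% in MPNST-CM. Genotypes were thus in the opposite order in Mφ and in M2 in control medium.

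Within the activating receptors, the share of Fcgr1 shifted with IL-4. It made up 18.4 ± 0.614% of the activating counts in WT Mφ in control medium and 18.2 ± 0.384% in MPNST-CM, but 2.41 ± 0.146% and 4.43 ± 0.116% in WT M2. In TRAP1 KO M2 it made up 4.16 ± 0.102% in control medium and 18.5 ± 0.486% in MPNST-CM, the latter close to the 18.7 ± 0.365% of TRAP1 KO Mφ in MPNST-CM. The highest share, 23.9 ± 1.69%, was found in TRAP1 KO Mφ in control medium.

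**Figure D4:**
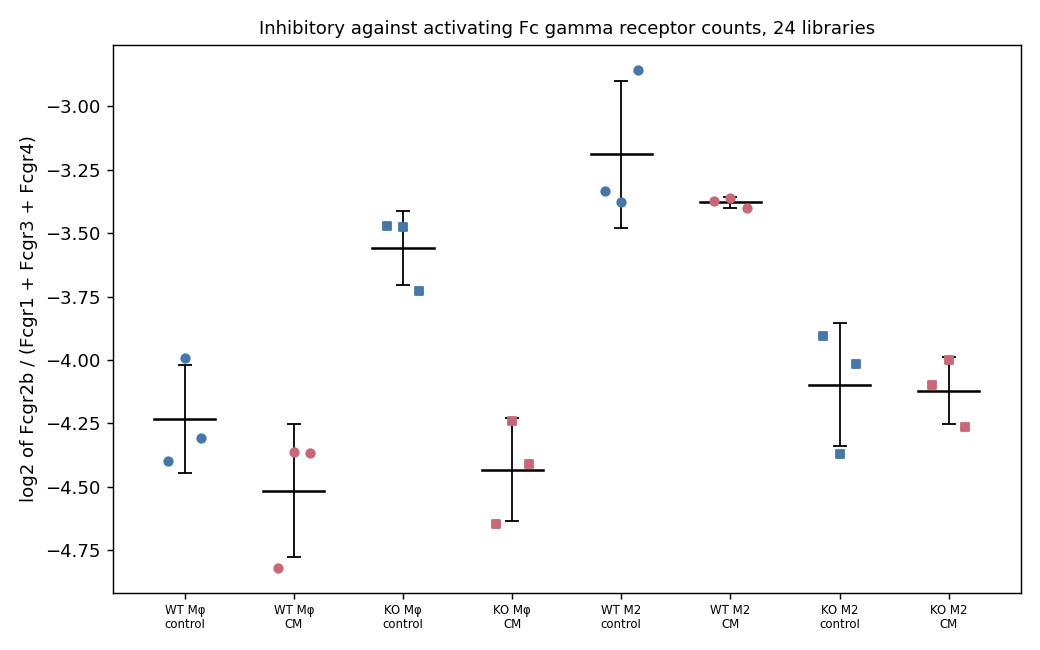
Log2 ratio of Fcgr2b counts to the summed counts of Fcgr1, Fcgr3 and Fcgr4 in each of the 24 libraries of batch 1, by group. Circles are WT and squares TRAP1 KO libraries, blue marks control medium and red MPNST-CM, lines are means and bars SD of 3 libraries; the 6 WT M2 libraries lie between −3.40 and −2.85, above the others, a rank that is lost when only Fcgr3, or Fcgr3 and Fcgr4, are in the denominator.

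Across the 24 libraries the receptors did not form a single pattern. Pearson's r of log2 CPM was 0.906 between Fcgr1 and Fcgr4, 0.792 between Fcgr1 and Stab1 and 0.770 between Msr1 and Fcgr3. It was −0.738 between Scarb1 and Fcgr4 and also between Marco and Fcgr3, and 0.607 between Fcgr2b and Fcgr3. Fcgr1 and Fcgr3, both activating, had an r of 0.0338. These are descriptions over 24 libraries that share 8 groups, without a p.

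**Figure D5:**
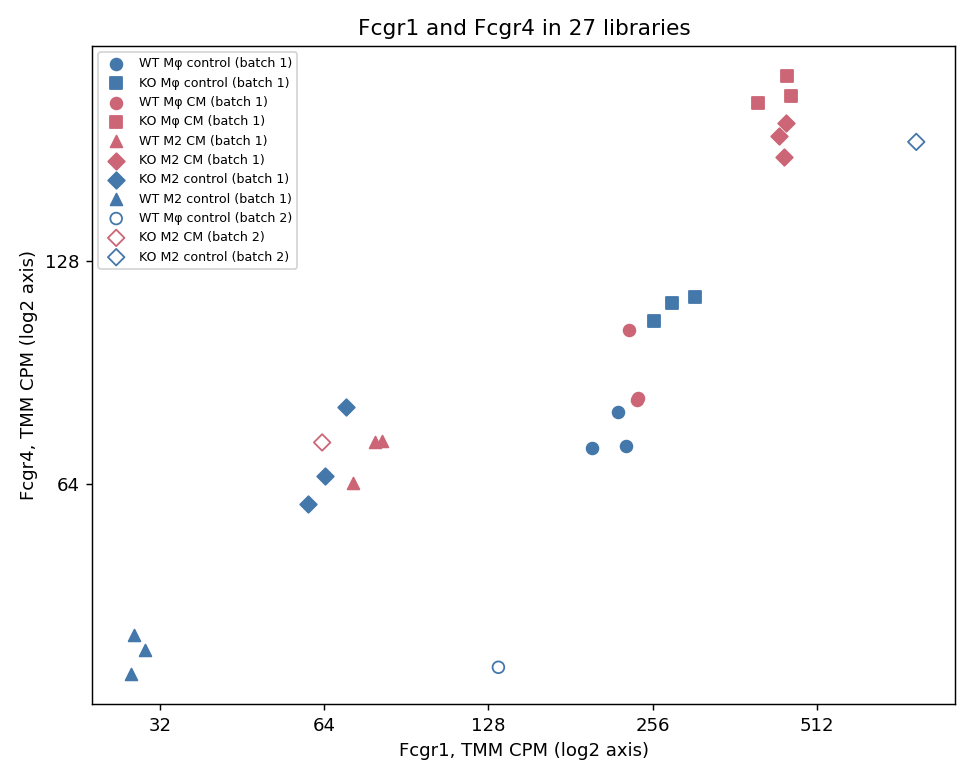
Fcgr4 against Fcgr1, both in CPM on log2 axes, with 1 point for each of the 27 libraries. Circles are WT Mφ, squares TRAP1 KO Mφ, triangles WT M2 and diamonds TRAP1 KO M2, blue marks control medium and red MPNST-CM, and open symbols are the 3 libraries of batch 2; the r over the 24 libraries of batch 1 is 0.906, and the open diamonds at 779 and 63.4 CPM and the open circle at 134 CPM of Fcgr1 lie away from their groups.

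For each receptor, the 3 other genes with the highest Pearson's r over the 24 libraries were listed, out of 8197 genes with a mean of at least 10 CPM. For Fcgr1 these were Irf7 (0.977), Trim30d (0.977) and Rtp4 (0.976), and for Fcgr4 they were Hipk1 (0.975), Ifitm6 (0.973) and Nisch (0.967). Stab1 went with Igfbp4 (0.976), Ptpn18 (0.948) and Ssbp3 (0.936), and Msr1 with Tagln2 (0.944), Gda (0.943) and Bcl2 (0.934). Scarb1 was closest to Anxa5 (0.936), Slc2a6 (0.929) and Eef1akmt1 (0.920), and Fcgr3 to Ctsl (0.929), Ero1a (0.928) and Ahr (0.926). Fcgr2b went with Srgn (0.901), Jak2 (0.892) and Tfec (0.870), and Fcer1g with S100a1 (0.874), Pacs2 (0.857) and 5031439G07Rik (0.850). Likeness was lowest for Cd163, with Tmem9 (0.780), Mfsd6 (0.775) and Nisch (0.774), and for Marco it was 0.898 with Crybg1, 0.878 with Nsmce1 and 0.856 with Chrac1.

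Since Fcgr1 and Fcgr4 moved together, the 250 bases before their annotated start are shown, from RefSeq on the mouse build GRCm38.p6. Entries were found for 8 of the 10 genes, not for Msr1 and Scarb1. Capitals mark matches, on either strand, to the core of PU.1 sites, GAGGAAG, or to the interferon-stimulated response element, GAAA and GAAA with 2 bases of any kind between. The motifs were chosen with the sequences in view. The Fcgr1 stretch lies at chr3:96293970-96294219 on the minus strand and the Fcgr4 stretch at chr1:171018676-171018925 on the plus strand, both upstream of the first exon.
Fcgr1: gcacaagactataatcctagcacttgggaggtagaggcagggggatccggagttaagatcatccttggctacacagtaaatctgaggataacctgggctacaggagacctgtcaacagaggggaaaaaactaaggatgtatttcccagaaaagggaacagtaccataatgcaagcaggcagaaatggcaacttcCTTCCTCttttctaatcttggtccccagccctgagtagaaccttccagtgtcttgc
Fcgr4: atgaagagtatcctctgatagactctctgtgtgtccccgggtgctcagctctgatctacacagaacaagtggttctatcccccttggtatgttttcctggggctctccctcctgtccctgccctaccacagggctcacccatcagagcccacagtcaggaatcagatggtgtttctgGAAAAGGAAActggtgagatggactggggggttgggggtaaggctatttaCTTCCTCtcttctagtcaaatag

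The PU.1 core was found 56 bases before the start of Fcgr1 and 23 bases before that of Fcgr4, in both on the opposite strand, where it reads as its reverse complement. It was also found in Fcgr3, at 7 and 16 bases in 2 entries of nearby starts, and in Marco at 146 bases, but not in Fcgr2b, Fcer1g, Cd163 or Stab1, so 4 of the 8 genes had it. Of 32841 promoters of the same length, 10.6% held this core. Among these 8 genes the interferon-stimulated response element was found only in Fcgr4, at 73 bases, and in 2.98% of all promoters. The STAT6 type, TTC and GAA with 4 bases of any kind between, was in 5.85% of all promoters and in none of the 8 stretches. A match is a description of letters, not of binding, and no match says only that these letters are not in this window.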

How the data were processed

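Macrophage RNA was sequenced by the authors with a stranded 3′ end protocol, and reads were trimmed, aligned with HISAT2 and counted per gene with featureCounts. The deposited values are raw counts per gene and library, not normalized. The labels give mm39 as the genome build and the methods mm10, so genes were matched by symbol only. Of 32 columns of the table, 27 belong to the labelled samples; 5 columns without a sample were not used.

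The 24 libraries of batch 1 were fitted together, with 1 mean for each of the 8 groups, by edgeR's quasi-likelihood test (edgeR 4.0.16, limma 3.58.1, R 4.3.3) after TMM scaling and edgeR's filter on low counts. Adjusted p-values are Benjamini-Hochberg values over the 13614 genes tested in a comparison, and a gene was called at an adjusted p under 0.05. There were 16 comparisons, 12 pairwise and 4 interactions. CPM were computed with TMM factors and log2 CPM with a prior count of 2. Scripts were tested on simulated data.

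Members, lists and motifs were chosen with earlier results of these data known. Named are the 10 receptors, genes of the lists of other scavenger receptors, signalling genes, other Fc receptors and partners, ligands, transcription factors, reference transcripts and cell type markers (up to 4 called genes with the largest absolute log2 fold change per list and comparison), and the 3 genes most like each receptor. Single values of some list genes are not reported here. Alternatives were median-of-ratios size factors, scaling by Rplp0, DESeq2 1.42.0, no filter, all 27 libraries, the replicate number as a block, a fit of only the groups compared, leaving out each library, other denominators of the receptor ratio, and Spearman's rho for likeness.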

Additional observations from a re-analysis of the deposited data

Results flagged for a closer look

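In Mφ the response to MPNST-CM differed between TRAP1 KO and WT cells by the interaction test in 6 receptors, with log2 differences of 1.49 for Cd163, 1.24 for Msr1, −1.68 for Scarb1, 0.50 for Fcgr1, 0.96 for Fcgr3 and 0.69 for Fcgr4. In M2 it differed in 4, with −1.004 for Stab1, −1.51 for Scarb1, 1.36 for Fcgr1 and 0.55 for Fcgr4.

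The response to MPNST-CM differed between M2 and Mφ in WT cells for Msr1 (−0.57), Stab1 (1.25), Fcgr1 (1.28) and Fcgr4 (0.62). In TRAP1 KO cells it differed for Cd163 (−1.05), Msr1 (−1.65), Stab1 (0.83), Fcgr1 (2.14), Fcgr3 (−0.78) and Fcgr4 (0.47).

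With batch 2, 3 groups have 4 libraries, and in them the gap between the most distant library and its nearest neighbour was set against the range of the group. The batch 2 library labelled TRAP1 KO M2 in control medium stood apart in Msr1 (gap 0.862 of the range, 738 CPM), Marco (0.985, 9.57 CPM), Fcgr1 (0.986, 779 CPM) and Fcgr4 (0.837, 185 CPM). The one labelled TRAP1 KO M2 in MPNST-CM stood apart in Scarb1 (0.955, 168 CPM), Fcgr1 (0.964, 63.4 CPM), Fcgr3 (0.864, 1279 CPM) and Fcgr4 (0.834, 72.9 CPM). Chance singles out about 1 in 20 groups in this way.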

How the results depend on the processing

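Each of the 160 tests of a receptor, 87 of them called, was repeated under 7 other settings, of which the block is given with the pairing. Direction and call were kept in 158 with median-of-ratios size factors, 158 in DESeq2, 156 with only the groups compared, 149 without the filter (4 calls lost, 7 gained), 140 with Rplp0 scaling (4 lost, 16 gained) and 110 with all 27 libraries (44 lost). Over 24 refits that left out 1 library, 3762 of 3840 values kept both, 54 lost and 24 gained a call, no call turned its direction, and 35 calls were kept under every setting and refit.

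With the 27 libraries 6 values reversed: Scarb1 in TRAP1 KO against WT M2 in control medium (−0.0068), Marco in TRAP1 KO M2 against Mφ in control medium (0.51), the genotype interaction in M2 of Fcgr1 (−0.95) and Fcgr4 (−0.24), and the IL-4 interaction in TRAP1 KO cells of Fcgr1 (−0.17) and Fcgr4 (−0.31). The cause was not tested.

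Receptors called with the 27 libraries were 1 (2 in batch 1 alone), 2 (6) and 1 (8) for MPNST-CM in WT Mφ, WT M2 and TRAP1 KO M2; 2 (6), 4 (7) and 1 (3) for genotype in Mφ in control medium, M2 in control medium and M2 in MPNST-CM; 5 (9), 3 (6) and 3 (6) for IL-4 in WT and TRAP1 KO cells in control medium and WT cells in MPNST-CM; and 2 (6), 0 (4), 0 (4) and 2 (6) for the interactions of genotype in Mφ and M2 and of IL-4 in WT and TRAP1 KO cells. For the counts of 0, edgeR's unadjusted p was under 0.05 in 1 and 2 receptors. For IL-4 in TRAP1 KO cells in MPNST-CM, 5 were called with Rplp0 scaling and 2 without the filter, against 1. Leaving out 1 library, the count was 2 to 7 for genotype in M2 in control medium (lowest without TRAP1 KO replicate 2), 1 to 2 for IL-4 in TRAP1 KO cells in MPNST-CM (highest without M2 replicate 2) and 3 to 6 for the IL-4 interaction in TRAP1 KO cells (lowest without Mφ in control medium replicate 2).

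The replicate numbers were not taken to pair the samples, since the r of same-numbered deviations ran from −0.214 to 0.521 (mean 0.107 over 77 pairs, against −0.0451 over 175 other pairs), and 11 of 24 libraries were on average closest to those of their own number. WT M2 in control medium is numbered 2 to 4 and the other groups 1 to 3, while the library names run in 3 series of 8 in which its replicates 2, 3 and 4 stand with replicates 1, 2 and 3 of the others. The r and the block follow the label numbers and may misalign this group. Without it (a check added after the data were seen) the r of the 63 same-numbered pairs left ran from −0.214 to 0.521 (mean 0.129), with 29 at or under 0.1. With the replicate block, 150 of the 160 tests kept direction and call, 1 lost and 9 gained a call: 5 receptors (3 without) were called for genotype in M2 in MPNST-CM (Msr1 and Fcgr2b gained) and 2 (1) for IL-4 in TRAP1 KO cells in MPNST-CM (Fcgr2b gained). The block also called 3 (2) for MPNST-CM in WT Mφ (Fcgr4 gained, adjusted p = 0.0436), 7 (6) in WT M2 (Fcgr2b gained), and 7 (6), 6 (4) and 7 (6) for the interactions of genotype in Mφ (Stab1 gained) and of IL-4 in WT (Fcgr2b and Fcgr3 gained) and TRAP1 KO cells (Fcgr2b gained), and the call of Fcgr2b for genotype in M2 in control medium was lost (−0.36, adjusted p = 0.0569).

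All genes called differed by more than 1.5 times as follows. Rplp0 scaling gave 4699 against 2238 for genotype in M2 in control medium and 3510 against 1522 for IL-4 in TRAP1 KO cells in MPNST-CM. Only the groups compared gave 1898 against 2889 for MPNST-CM in WT Mφ and 1941 against 3392 for IL-4 in WT cells in MPNST-CM. The 27 libraries gave 958 (2889), 2647 (4476), 1014 (3330) and 826 (5016) for MPNST-CM in WT Mφ, TRAP1 KO Mφ, WT M2 and TRAP1 KO M2; 854 (2261), 3097 (5207), 1137 (2238) and 1681 (4627) for genotype in Mφ in control medium, Mφ in MPNST-CM, M2 in control medium and M2 in MPNST-CM; 2216 (3883), 1204 (3392) and 475 (1522) for IL-4 in TRAP1 KO cells in control medium, WT cells in MPNST-CM and TRAP1 KO cells in MPNST-CM; and 653 (2683), 180 (2751), 192 (1653) and 407 (1564) for the interactions, in the order above. With Rplp0 scaling the share of higher among called genes was 76.8% against 45.8% for MPNST-CM in WT M2, 93.2% against 52.1% for genotype in M2 in control medium, 86.9% against 54.6%, 86.2% against 47.7% and 95.3% against 60.0% for IL-4 in the order above, and 15.7% against 46.3% and 78.5% against 43.1% for the interactions of genotype in M2 and of IL-4 in WT cells. The log2 all-gene medians of these 7, in the same order, were 0.19, 0.34, 0.30, 0.22, 0.30, −0.28 and 0.22, against −0.03, 0.02, −0.03, −0.05, 0.0082, 0.02 and −0.0032 with TMM.

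The log2 ratio of Fcgr2b to Fcgr3 and Fcgr4, and to Fcgr3 alone, was −3.94 and −3.82 in WT Mφ in control medium, −3.15 and −3.11 in WT M2 in control medium, −4.04 and −3.97 in TRAP1 KO M2 in control medium, −4.23 and −4.10 in WT Mφ in MPNST-CM, −3.16 and −2.97 in TRAP1 KO Mφ in control medium, −3.31 and −3.25 in WT M2 in MPNST-CM, and, for TRAP1 KO cells in that medium, −4.13 and −3.96 in Mφ and −3.83 and −3.68 in M2. By Spearman's rho 9 of the 30 genes most like a receptor were shared. At this depth changes of Marco and Cd163, with few counts, have wide errors.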
